A study of Rattus norvegicus with 21 samples.

Results

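The data followed 6 genes that relay the circadian clock to liver physiology, Dbp, Tef, Hlf, Nfil3, Usp2 and Noct, through the livers of male rats given tert-butylphenyl diphenyl phosphate (BPDP), an organophosphate ester. They were chosen by name, as all probe sets whose platform symbol is one of these genes, and were measured by 12 of 31042 probe sets, or as 6 of 14217 genes. The 15 dosed Harlan Sprague Dawley rats had BPDP by gavage in corn oil at 64.6, 129.2, 258.1, 516.2 or 1032.5 mg/kg on each of 4 days, 3 rats per dose. The vehicle group had corn oil alone on the same schedule and is listed with 6 arrays, although the treatment protocol speaks of 5 rats. Left-lobe liver was taken on day 5 from every group, and the labels give neither the rats' age nor the time of day at which tissue was taken. Since the 6 genes vary with time of day, dose and any difference in collection time between groups cannot be told apart in these data. Expression was read on 1 Affymetrix array per sample as log2 signal.

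In the molecular clock of the liver, the heterodimer of Clock and Bmal1 acts at E-boxes to drive genes that include the repressors Per, Cry and Nr1d1 and the output factor Dbp. Dbp, Tef and Hlf are PAR bZIP factors (proline and acidic amino acid-rich basic leucine zippers), which activate genes through D-box elements, many of them for lipid and drug metabolism. Nfil3, also called E4bp4, lacks the PAR domain, binds the same elements and represses them, and in mice it peaks at the opposite time of day from Dbp. Usp2 encodes a deubiquitinase and Noct the enzyme nocturnin, and both are rhythmic in mouse liver.

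Over the mean of the 5 doses the 3 activators and both other output genes were higher in dosed than in vehicle livers, and the repressor Nfil3 was lower. The changes of Dbp, Tef, Usp2 and Nfil3 were already called at 64.6 mg/kg, the lowest dose, while Hlf was called from 258.1 mg/kg and Noct from 516.2 mg/kg upwards. The Hlf calls at 258.1 and 516.2 mg/kg were each lost when certain single arrays were left out. A call here is an adjusted p under 0.05 from limma, fitted to all arrays and adjusted over all probe sets by the Benjamini-Hochberg method. Each dose was compared with the same vehicle arrays, so the 5 comparisons are not independent of each other. The sequence just upstream of the start site is shown first for Dbp and Tef, which moved together, and for Nfil3, which moved against them. Each window runs 5′ to 3′ from 250 bases before to 50 bases after the annotated start in RefSeq's GRCr8 annotation, and capitals mark an E-box (CACGTG).
Dbp: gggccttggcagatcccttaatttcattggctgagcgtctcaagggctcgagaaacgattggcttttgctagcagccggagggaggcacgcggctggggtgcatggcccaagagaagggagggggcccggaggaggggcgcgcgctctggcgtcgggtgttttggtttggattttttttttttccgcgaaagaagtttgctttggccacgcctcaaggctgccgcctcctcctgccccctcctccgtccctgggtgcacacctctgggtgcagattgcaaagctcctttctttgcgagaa
Tef: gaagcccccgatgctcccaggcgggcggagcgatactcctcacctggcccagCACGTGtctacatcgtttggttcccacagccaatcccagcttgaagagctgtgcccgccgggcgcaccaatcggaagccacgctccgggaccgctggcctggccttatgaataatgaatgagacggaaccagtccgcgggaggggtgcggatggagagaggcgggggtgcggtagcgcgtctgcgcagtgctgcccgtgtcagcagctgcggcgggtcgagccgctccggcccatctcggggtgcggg
Nfil3: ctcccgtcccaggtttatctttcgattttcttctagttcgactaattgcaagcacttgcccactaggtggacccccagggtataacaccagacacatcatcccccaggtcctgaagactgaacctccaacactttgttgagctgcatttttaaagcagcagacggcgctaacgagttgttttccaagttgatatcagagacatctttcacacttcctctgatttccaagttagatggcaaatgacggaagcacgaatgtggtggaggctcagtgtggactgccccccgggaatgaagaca

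The windows lie on the plus strand at chr1:105312006-105312305 for Dbp, chr7:115206577-115206876 for Tef and chr17:12432126-12432425 for Nfil3. Of the 6 genes, 5 had such a window in the RefSeq table, the others being Usp2 on chromosome 8 and Noct on chromosome 2. On either strand, the E-box letters CACGTG were present in 6.42% of 33469 rat windows and in 1 of the 5, that of Tef, beginning 198 bases before its start. The D-box letters TTANGTAA were present in 2.24% of windows and the REV-ERB and ROR element TNGGTCA in 11.1%, and neither was in any of the 5. A match is a description of the letters in this window.

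Dbp was lowest in the vehicle group, at 5.44, 5.77 and 6.10 (lowest, median and highest of 6 log2 signals). Its 3 arrays per dose read 10.03, 10.47 and 10.13 at 64.6 mg/kg, 10.31, 9.61 and 10.19 at 129.2, 10.04, 9.95 and 10.94 at 258.1, 10.65, 10.40 and 9.61 at 516.2, and 10.87, 10.59 and 10.24 at 1032.5 mg/kg. All 15 dosed arrays lay above all 6 vehicle arrays, and the gap between them was wider than the range within either set. The change was 4.43, 4.25, 4.53, 4.44 and 4.78 on the log2 scale from the lowest to the highest dose, each with an SE of 0.23, or between 19.1-fold and 27.6-fold. Adjusted p ran between 2.11e-10 and 1.97e-09 over the doses in limma. Dbp has 1 probe set on the array, so no second probe set could be set beside it.

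**Figure D1:**
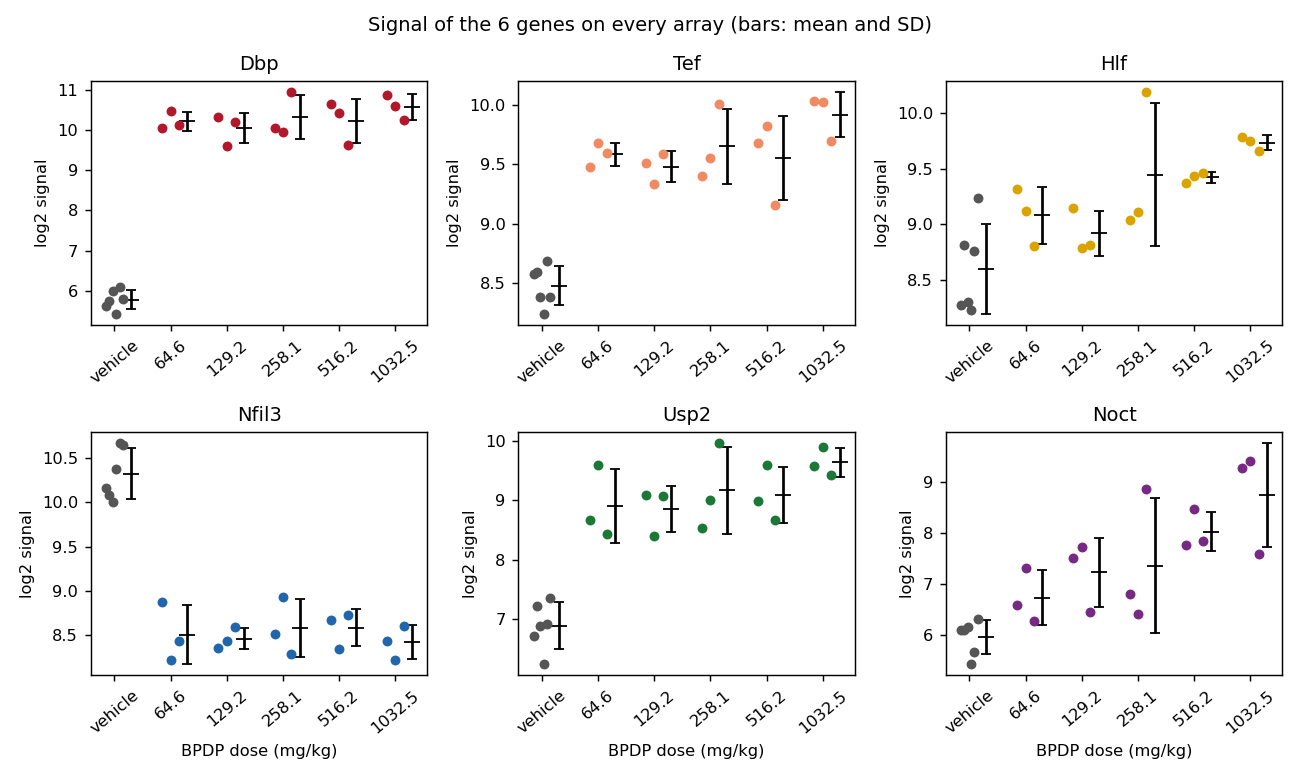
Log2 signal of the 6 genes on each of the 21 arrays (y axis, each gene on its own scale) against BPDP dose in mg/kg with the vehicle at the left (x axis); points are arrays and bars give the mean and SD of 6 vehicle or 3 dosed arrays. Dosed arrays of Dbp, Tef and Usp2 sit above all vehicle arrays and those of Nfil3 below them, while Noct climbs with dose.

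Tef, the second activator, read 8.25, 8.48 and 8.69 in the vehicle group (lowest, median and highest). Its arrays read 9.48, 9.68 and 9.60 at 64.6 mg/kg, 9.52, 9.34 and 9.59 at 129.2, 9.40, 9.55 and 10.01 at 258.1, 9.68, 9.83 and 9.16 at 516.2, and 10.03, 10.03 and 9.70 at 1032.5 mg/kg. Again all 15 dosed arrays lay above all 6 vehicle arrays, but over a far narrower span than for Dbp. The log2 change was 1.10, 1.0, 1.17, 1.07 and 1.44 from the lowest to the highest dose (SE 0.14), and limma called it at every dose (adjusted p between 2.28e-06 and 0.00163). The size of the Tef response depended on the probe set. The next brightest gave 0.81, 0.76, 0.98, 0.72 and 0.57 and was called at 258.1 mg/kg (adjusted p = 0.0149) and 516.2 mg/kg (adjusted p = 0.0468) but at no other dose, with adjusted p of 0.141 at 64.6, 0.189 at 129.2 and 0.127 at 1032.5 mg/kg. The dimmest, the last of the 3, averaged 5.17 ± 0.11 in vehicle livers (SD, n = 6) and was called at no dose.

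Hlf, the third activator, read 8.22, 8.53 and 9.24 in the vehicle group (lowest, median and highest). Its arrays read 9.32, 9.12 and 8.81 at 64.6 mg/kg, 9.15, 8.78 and 8.81 at 129.2, 9.03, 9.11 and 10.19 at 258.1, 9.37, 9.43 and 9.46 at 516.2, and 9.79, 9.75 and 9.66 at 1032.5 mg/kg. Only 8 of the 15 dosed arrays lay above the highest vehicle array, among them all 6 of the highest 2 doses. The log2 change was 0.48 (adjusted p = 0.589) at 64.6 mg/kg and 0.32 (adjusted p = 0.856) at 129.2 mg/kg in limma, with an SE of 0.22, and neither value passed the test. It was 0.85 (adjusted p = 0.0493) at 258.1, 0.82 (adjusted p = 0.0332) at 516.2 and 1.13 (adjusted p = 0.00293) at 1032.5 mg/kg.

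The Hlf call at 258.1 mg/kg rested on single arrays: without replicate 3 of that dose, the highest Hlf array of the series, the change was 0.47 (adjusted p = 0.418), and leaving out any one of vehicle replicates 1 to 5 also ended it (adjusted p between 0.0571 and 0.103). The call at 516.2 mg/kg was lost without vehicle replicate 1, 3 or 4 or without any one array of that dose (adjusted p between 0.0615 and 0.118). The call at 1032.5 mg/kg held with each array left out in turn, with adjusted p up to 0.0187. Of the other 3 Hlf probe sets, the 2 brighter were called at 1032.5 mg/kg (log2 change 1.46, adjusted p = 0.00136, and 0.87, adjusted p = 0.00286). Neither of these was called at 258.1 mg/kg (0.92, adjusted p = 0.0746, and 0.60, adjusted p = 0.0740) or at 516.2 mg/kg (0.76, adjusted p = 0.0950, and 0.57, adjusted p = 0.0521). The last, the dimmest, lay below the arrays' lower quartile at every dose and was not called.

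**Figure D2:**
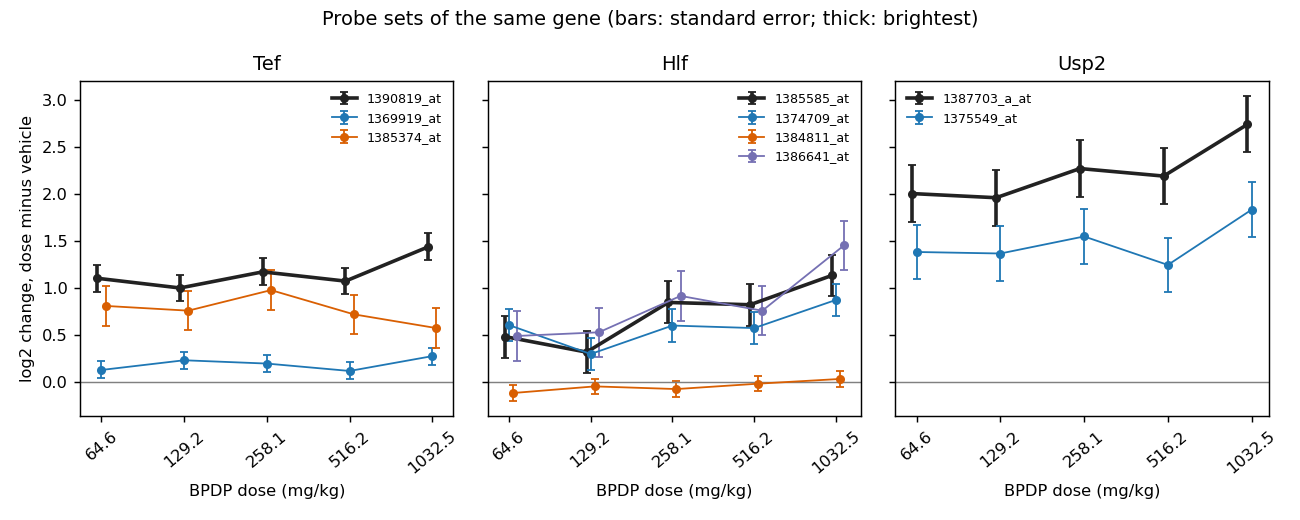
Log2 change from vehicle with its standard error (y axis) by BPDP dose in mg/kg (x axis) for each probe set of Tef, Hlf and Usp2, the brightest drawn thick. Probe sets of Hlf other than the dimmest and both of Usp2 lie above 0 at all 5 doses, while those of Tef differ in size.

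Nfil3, the repressor that shares the D-box with the 3 activators, read 10.00, 10.27 and 10.68 in the vehicle group (lowest, median and highest). Its arrays read 8.87, 8.21 and 8.43 at 64.6 mg/kg, 8.35, 8.43 and 8.59 at 129.2, 8.51, 8.93 and 8.29 at 258.1, 8.67, 8.35 and 8.73 at 516.2, and 8.44, 8.21 and 8.60 at 1032.5 mg/kg. All 15 dosed arrays lay below all 6 vehicle arrays. The log2 change was -1.82, -1.87, -1.75, -1.74 and -1.91 from the lowest to the highest dose (SE 0.17), so Nfil3 was between 3.35-fold and 3.76-fold lower, with adjusted p between 6.60e-07 and 6.36e-06 in limma. Liver was measured as bulk tissue, in which fewer cells of a type and less RNA per cell cannot be told apart.

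Usp2, the deubiquitinase, read 6.24, 6.91 and 7.35 in the vehicle group (lowest, median and highest). Its arrays read 8.67, 9.60 and 8.43 at 64.6 mg/kg, 9.09, 8.41 and 9.06 at 129.2, 8.53, 9.0 and 9.97 at 258.1, 8.99, 9.60 and 8.67 at 516.2, and 9.58, 9.90 and 9.43 at 1032.5 mg/kg. All 15 dosed arrays lay above all 6 vehicle arrays, with a wider spread among the dosed arrays than Tef had. The log2 change was 2.01, 1.96, 2.27, 2.19 and 2.75 from the lowest to the highest dose (SE 0.30), a rise of 3.90-fold to 6.71-fold (limma adjusted p between 6.44e-06 and 0.00327). The second probe set for Usp2 gave smaller changes of 1.38, 1.37, 1.55, 1.25 and 1.84 and was also called at every dose (adjusted p between 0.000413 and 0.0496).

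Noct, which encodes nocturnin, was the one gene of the 6 with a called slope over dose, given further on. It read 5.44, 6.10 and 6.32 in the vehicle group (lowest, median and highest), then 6.60, 7.32 and 6.28 at 64.6 mg/kg, 7.51, 7.71 and 6.46 at 129.2, 6.80, 6.42 and 8.86 at 258.1, 7.76, 8.46 and 7.85 at 516.2, and 9.26, 9.39 and 7.58 at 1032.5 mg/kg. Of the dosed arrays, 14 of 15 lay above the vehicle arrays, and arrays of the same dose lay far apart at 258.1 and 1032.5 mg/kg. The log2 change was 0.77, 1.26, 1.39, 2.06 and 2.78 from the lowest to the highest dose (SE 0.45), and limma called it at 516.2 mg/kg (adjusted p = 0.00948) and 1032.5 mg/kg (adjusted p = 0.000466). At the lower doses it was not called (adjusted p = 0.722, 0.435 and 0.123). The value at 258.1 mg/kg rested on replicate 3 of that dose: the change was 0.64 without it (adjusted p = 0.686) and 1.86 without replicate 2 (adjusted p = 0.0495).

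**Figure D3:**
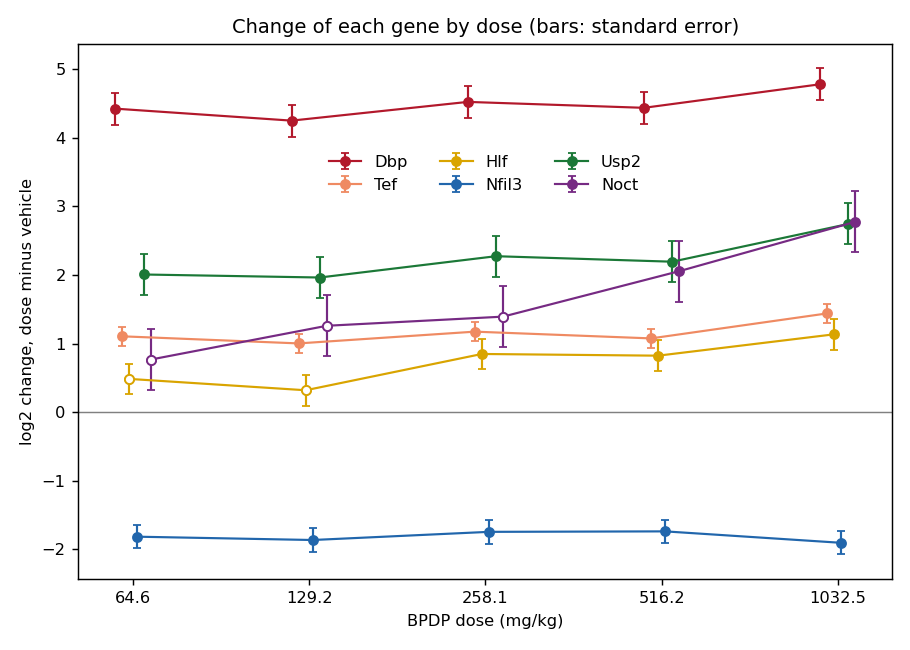
Log2 change from vehicle with its standard error (y axis) by BPDP dose in mg/kg (x axis) for the 6 genes, filled where limma's adjusted p is under 0.05 and open where it is not. Dbp, Tef, Usp2 and Nfil3 are already displaced at 64.6 mg/kg, whereas Noct goes to 2.78 at 1032.5 mg/kg.

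Counted over the 6 genes, 3 were higher and 1 lower at 64.6 mg/kg, against a background of 0.135% of all probe sets called higher and 0.113% called lower. At 129.2 mg/kg the count was again 3 higher and 1 lower (background 0.222% and 0.126%), and at 258.1 mg/kg it was 4 higher and 1 lower (1.36% and 0.992%). At 516.2 mg/kg, as at 1032.5 mg/kg, 5 were higher and 1 lower, against backgrounds of 4.02% and 2.0% at 516.2 mg/kg and of 3.30% and 2.85% at 1032.5 mg/kg. With each array left out in turn, the genes called numbered 4 to 6 at 258.1 mg/kg, with 4 without that dose's replicate 3. They numbered 5 to 6 at 516.2 mg/kg, and the count did not change at the other doses. The median log2 change of the 6 genes was 0.94, 1.13, 1.28, 1.57 and 2.09 from the lowest to the highest dose, beside medians of 0.01, -0.01, -0.00, -0.02 and -0.01 over all probe sets. With the mean of the 5 doses set against the vehicle, 5 genes were higher and 1 lower, where 3.37% of probe sets were called higher and 2.33% lower. In that comparison the log2 change was 4.49 for Dbp, 1.16 for Tef, 0.72 for Hlf, 2.24 for Usp2, 1.65 for Noct and -1.82 for Nfil3. Dosed and vehicle arrays did not overlap at all for 4, 5, 5, 6 and 6 of the 6 genes from the lowest to the highest dose, where 5.43%, 5.04%, 9.17%, 14.2% and 14.0% of all genes showed such a gap.

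The next question was whether the response grew among the dosed animals themselves. Neighbouring doses gave no call for any of the 6 genes, with 0, 0, 0 and 1 of the 6 passing at an unadjusted p under 0.05 from the lowest pair of doses to the highest, where 4.98%, 5.05%, 6.89% and 9.30% of all probe sets did. After adjustment, the background for each of these 4 comparisons was also 0% of probe sets. Between 1032.5 and 64.6 mg/kg none of the 6 was called, against 1.48% of all probe sets, and 3 passed unadjusted, against 13.3%. Noct had the widest difference there, 2.01 on the log2 scale (adjusted p = 0.0567). A slope per dose step, fitted to the 15 dosed arrays, was called for 1 of the 6 genes, Noct, at 0.48 log2 units per step (SE 0.12, adjusted p = 0.0409), against 2.28% of probe sets in either direction. That call was lost without any one of replicates 1 and 3 at 64.6, replicate 3 at 129.2, replicates 2 and 3 at 516.2 and replicates 1 and 2 at 1032.5 mg/kg (adjusted p between 0.0506 and 0.131). The slope was 0.09 for Dbp (adjusted p = 0.538), 0.07 for Tef (adjusted p = 0.403), 0.17 for Usp2 (adjusted p = 0.294) and -0.01 for Nfil3 (adjusted p = 0.968). Hlf had a slope of 0.18 (adjusted p = 0.0797), which passed without replicate 3 of the 258.1 mg/kg group (adjusted p = 0.0100).

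Among the 3 PAR bZIP genes, each read by its brightest probe set, the sizes of the changes differed. Such sizes depend in part on the probe set, as shown above for Tef. The difference between Dbp and Tef was taken on each array and compared between dosed and vehicle livers by a two-sided exact permutation test, and likewise for the other pairs, 15 comparisons in all. Dbp changed more than Tef by between 3.25 and 3.37 on the log2 scale, and more than Hlf by between 3.62 and 3.95. All 10 of these comparisons gave p = 0.0238, the smallest that 3 arrays against 6 allow, and adjusted p = 0.0325 over the 15 exact tests. At this floor the p-values do not reflect the size of the differences. The doses also shared the same vehicle arrays, so these comparisons are not independent of each other. Tef changed more than Hlf at 129.2 mg/kg (difference 0.68, adjusted p = 0.0325 in the exact test). The unadjusted p was again the smallest possible, 0.0238, and that call rests on adjustment together with the 10 Dbp comparisons at the same p. At 64.6, 258.1, 516.2 and 1032.5 mg/kg the difference between Tef and Hlf was 0.62, 0.33, 0.25 and 0.31, with adjusted p of 0.0595, 0.255, 0.452 and 0.247 in the same exact test. With the next brightest probe set of both genes it was 0.23 at 129.2 mg/kg (adjusted p = 0.417 in the exact test) and -0.88 at 1032.5 mg/kg.

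Several of the 6 genes also varied together between rats of the same dose, Dbp, Tef and Usp2 most closely. Replicate 3 of the 258.1 mg/kg group was the highest of its dose for all 5 of the genes that were higher in dosed livers and the lowest for Nfil3. Replicate 2 of the 64.6 mg/kg group was the highest for 4 of the 5 and the lowest for Nfil3. After each dose group's mean was subtracted, the deviations of the 15 dosed arrays correlated at r = 0.902 between Dbp and Tef (Spearman 0.875, and r = 0.823 without the 2 most extreme Dbp arrays), 0.803 between Tef and Usp2 and 0.750 between Dbp and Usp2. The correlation of Nfil3 with Noct was -0.722 and that of Hlf with Noct 0.719, the second being 0.505 without the 2 arrays of most extreme Hlf deviation. Other pairs were looser: r was -0.321 between Hlf and Nfil3 (-0.158 without the 2 most extreme arrays), 0.507 between Tef and Hlf (Spearman 0.361), 0.660 between Hlf and Usp2 (0.346 without 2 arrays) and 0.63 between Usp2 and Noct (0.372 without 2 arrays). Genes read on the same array share its RNA sample and hybridisation. The part of this in the correlations over the 15 arrays was not tested.

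**Figure D4:**
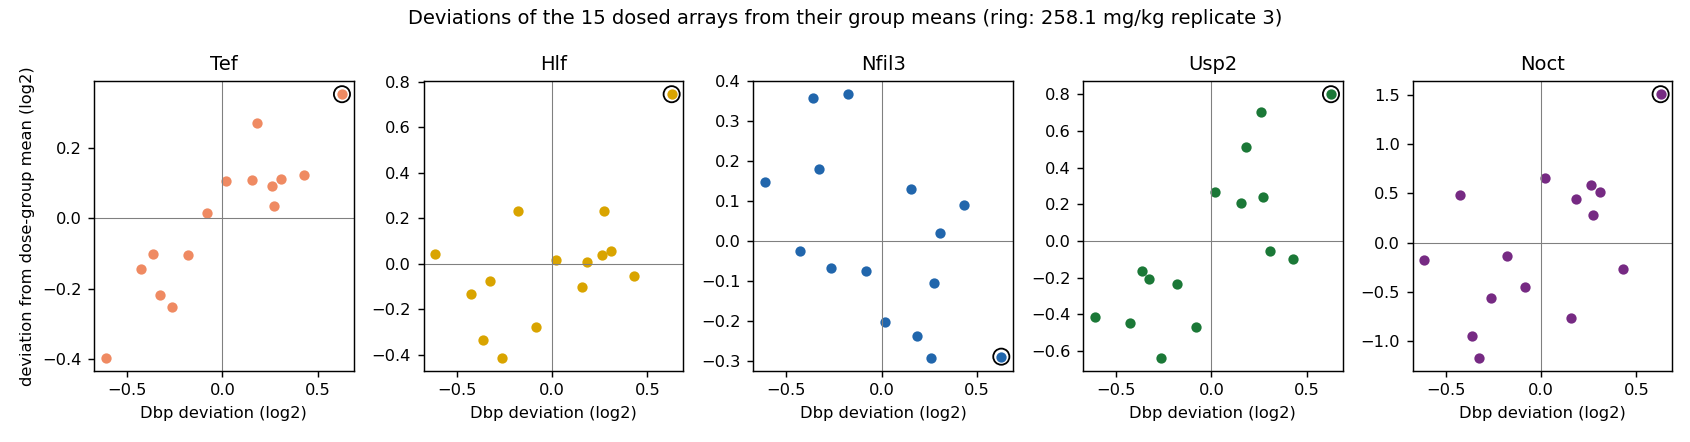
Deviation of each gene's log2 signal from its dose-group mean (y axis) against that of Dbp (x axis) for the 15 dosed arrays, with replicate 3 of the 258.1 mg/kg group ringed. Tef follows Dbp most closely (r = 0.902), Nfil3 runs the other way, and the ringed array is the highest for Dbp, Tef, Hlf, Usp2 and Noct.

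Over the 21 arrays the gene closest to Dbp was Nr1d2, the clock repressor REV-ERB beta (r = 0.979), followed by the steroid dehydrogenase gene Hsd17b2 (r = 0.976) and Tef (r = 0.963). Because vehicle and dosed arrays lie apart for Dbp, these values largely follow that gap, and over the 15 dosed arrays alone they were 0.686, 0.723 and 0.907. The genes running most against Dbp were Nfil3 (r = -0.964), Lgalsl (r = -0.942) and the clock activator Bmal1 (r = -0.939), with -0.503, -0.421 and -0.845 among dosed arrays. Tef lay closest to Usp2 (r = 0.965, and 0.854 among dosed arrays), Dbp and Hsd17b2 (r = 0.931, and 0.585). Usp2 lay closest to Tef, Dbp (r = 0.948, and 0.797 among dosed arrays) and Cobll1 (r = 0.917, and 0.765). Nfil3 lay closest to Lgalsl (r = 0.953), Rnf8 (r = 0.920) and Bmal1 (r = 0.919). Vehicle and dosed arrays lie apart for Nfil3 too, and among dosed arrays alone these values were 0.492, 0.495 and 0.418. Hlf lay closest to Rhbdd2 (r = 0.932, and 0.909 among dosed arrays), Tom1l1 (r = 0.914) and Cobll1 (r = 0.909). Noct lay closest to Wee1, a kinase that delays mitosis (r = 0.922, and 0.902 among dosed arrays). Next was Gclc, the catalytic subunit of glutathione synthesis (r = 0.906, and 0.924). Then came Myo5b, a motor protein gene (r = 0.904, and 0.875). Wee1 is among the genes known to cycle in liver that are given further on. At 64.6 mg/kg the log2 change was 0.09 for Wee1, 0.33 for Gclc and 0.05 for Myo5b, none of them called, and at 1032.5 mg/kg it was 0.94, 1.27 and 1.31, all called (adjusted p = 0.000151, 0.000155 and 1.30e-05 in limma).

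Of 19 listed genes of the core clock, 16 were measured, and 4, 3, 6, 5 and 5 were higher and 2, 3, 3, 3 and 3 lower from the lowest to the highest dose. Of all probe sets, 0.135%, 0.222%, 1.36%, 4.02% and 3.30% were called higher and 0.113%, 0.126%, 0.992%, 2.0% and 2.85% lower. The median log2 change of the 16 genes was between 0.09 and 0.24, against medians of -0.02 to 0.01 over all probe sets. The REV-ERB genes, which repress Bmal1 and Nfil3, were higher at every dose, Nr1d1 by 2.81, 2.73, 2.62, 2.48 and 2.11 and Nr1d2 by 1.84, 1.85, 1.79, 1.73 and 1.81. The activator Bmal1, which drives Dbp, was lower by the log2 values -1.93, -1.63, -2.34, -2.28 and -2.75, and its partner Npas2 by -1.51, -1.28, -2.10, -2.07 and -3.50. Npas2 had a called slope among dosed arrays, -0.48 per step (adjusted p = 0.0125), and its call at 129.2 mg/kg was lost with any one array left out (adjusted p between 0.0734 and 0.255), that at 64.6 mg/kg without either of 2 arrays (adjusted p = 0.0994 and 0.133). Per3, a repressor of the clock's feedback loop, was called at every dose with a log2 change of 1.79 to 2.42. Its next probe set gave between -0.05 and 0.18 and was called at none.

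The repressor gene Cry2 was higher at 4 doses, by 0.85 at 64.6 and 0.86 at 1032.5 mg/kg on the log2 scale, and not called at 129.2 mg/kg (0.63, adjusted p = 0.174). Its next probe set was called at none of them. Cry1, its paralogue, was lower at 129.2, 258.1 and 516.2 mg/kg, with log2 changes of -1.37, -0.82 and -0.76, and Per1 was higher at 258.1 and 1032.5 mg/kg, by 0.58 and 0.53. Clock was lower at 1032.5 mg/kg (-0.47, adjusted p = 0.0475), a call that ended with any one array left out. Bhlhe41 was higher at 258.1 mg/kg (0.69) and Timeless at 516.2 mg/kg (0.72), each at that dose alone. These last calls, apart from that of Cry1 at 129.2 mg/kg and of Cry2 at 1032.5 mg/kg, were each lost without 1 or more single arrays, with adjusted p up to 0.237. Per2, Bhlhe40, Rora, Csnk1d and Csnk1e were not called at any dose.

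**Figure D5:**
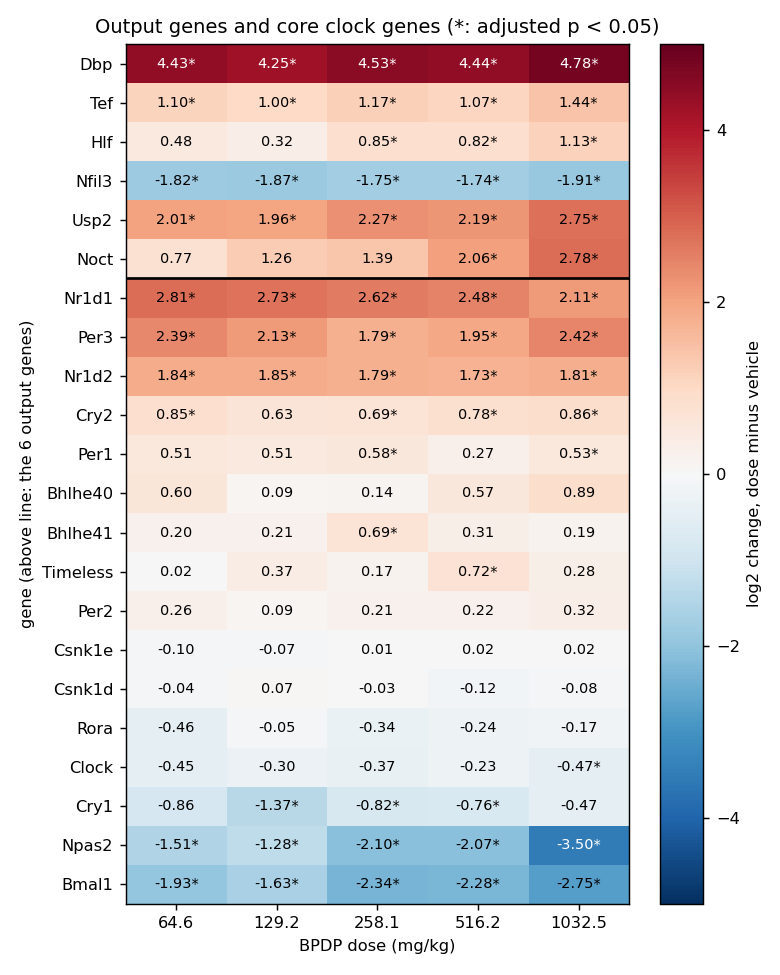
Log2 change from vehicle (colour and printed value) by BPDP dose in mg/kg (x axis) for the 6 output genes above the line and the 16 measured core clock genes below it, with an asterisk where limma's adjusted p is under 0.05. Nr1d1 and Nr1d2 are higher and Bmal1 and Npas2 lower at all 5 doses, as Dbp is higher and Nfil3 lower.

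Of 15 genes listed as targets of PAR bZIP factors, all measured, 0, 0, 2, 2 and 6 were higher and 0 lower at every dose. Of all probe sets, 0.135%, 0.222%, 1.36%, 4.02% and 3.30% were called higher from the lowest to the highest dose. None of the 15 was thus called at 64.6 and 129.2 mg/kg, where the log2 change of Dbp was 4.43 and 4.25. At these 2 doses few probe sets of any kind were called. At an unadjusted p under 0.05, 2 of the 15 passed at 64.6 mg/kg, Acot3 and Acot4, both with a lower signal (-0.39 and -0.55), and 3 at 129.2 mg/kg, Cyp7a1, Cyp8b1 and Ppara, all with a higher one (1.53, 0.91 and 0.40). Of all probe sets, 8.15% passed that threshold at 64.6 mg/kg and 7.25% at 129.2 mg/kg. The median log2 change of the 15 was -0.01 at 64.6 mg/kg and 0.80 at 1032.5 mg/kg. The acyl-CoA thioesterase gene Acot1 averaged 9.74 ± 2.11 at 1032.5 mg/kg (SD, n = 3) against 3.60 ± 0.12 in vehicle livers (n = 6), where it lay below the arrays' lower quartile (adjusted p = 1.34e-06). Acot2 was higher at 258.1, 516.2 and 1032.5 mg/kg, by 1.06, 1.30 and 1.64, and at 1032.5 mg/kg Acot4 was higher by 1.32 and Acot3 by 1.02. Alas1, the rate-limiting enzyme of haem synthesis, and Por, the electron donor of cytochromes P450, were called at 1032.5 mg/kg alone, with log2 changes of 1.87 (adjusted p = 0.000148) and 1.45 (adjusted p = 0.00333). The brightest of those called at no dose, Alb and Cyp8b1, had log2 changes of -0.00 and 0.49 there (adjusted p = 0.995 and 0.233). Alb averaged 15.34 both in vehicle livers and at 1032.5 mg/kg, so high on the arrays that a change could be compressed.

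Of 15 other genes known to cycle in liver, 14 were measured, and 1, 1, 2, 3 and 3 were higher and 1, 1, 1, 2 and 2 lower from the lowest to the highest dose. The shares of all probe sets were 0.135%, 0.222%, 1.36%, 4.02% and 3.30% higher and 0.113%, 0.126%, 0.992%, 2.0% and 2.85% lower. Hsd17b2 was higher at all 5 doses, by 2.47, 2.38, 2.62, 2.27 and 2.53. Cdkn1a, the gene of the cell cycle inhibitor p21, was lower at all 5 doses, by the log2 values -2.07, -1.50, -1.50, -1.52 and -2.32, while its next probe set was called only at 1032.5 mg/kg (-0.56, adjusted p = 0.0407). Wee1 was higher from 258.1 mg/kg upwards, by 0.55, 0.70 and 0.94, with the call at 258.1 mg/kg lost without any one of 5 arrays, and its next probe set gave 0.52 (adjusted p = 0.122), 0.33 (adjusted p = 0.260) and 0.84 (adjusted p = 0.00322). Tsku, a secreted protein gene, was higher at 516.2 and 1032.5 mg/kg, by 1.72 and 2.09, calls that were likewise lost without single arrays (adjusted p up to 0.113). Insig2, which restrains sterol synthesis, was lower at the same doses, with log2 changes of -1.28 and -1.53.

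The arrays were much alike, with r between 0.984 and 0.995 for pairs over all probe sets. Vehicle replicate 6 was the least like its group (mean r = 0.989), and without it the count of the 6 genes called was 4, 4, 5, 6 and 6, as with it. Of 7 hepatocyte markers 0 were called at any dose. Their summed level, 17.09 to 17.12 at 1032.5 mg/kg against 17.08 to 17.18 in vehicle livers (log2 of the summed signal), is set mostly by Alb, Ttr and Serpina1, which lie so high on the arrays that a change could be compressed. The dimmer marker Hnf4a averaged 12.56 ± 0.34 at 1032.5 mg/kg (SD, n = 3) against 12.65 ± 0.14 in vehicle livers (n = 6), and Tat averaged 10.04 ± 0.30 against 9.67 ± 0.44. Of the other cell types at 1032.5 mg/kg, 2 of 2 red cell markers were lower (summed level 10.51 to 11.80 against 12.38 to 13.76 in vehicle livers), as were 2 of 5 Kupffer cell markers (11.65 to 12.06 against 12.12 to 12.70), 2 of 5 lymphocyte markers (7.84 to 7.94 against 8.12 to 8.45) and 1 of 5 stellate cell markers (9.34 to 9.41 against 9.50 to 9.99). The cholangiocyte marker Epcam was higher there, 1 of 3 markers called (summed level 9.92 to 10.24 against 9.20 to 9.79). At 258.1 mg/kg, where Hlf was first called, 1 of 5 stellate cell markers was lower (Pdgfrb, summed level 9.49 to 9.69) and Epcam was higher (summed cholangiocyte level 9.77 to 10.36). At 516.2 mg/kg, where Noct was first called, 2 of 5 stellate cell markers (9.10 to 9.40), 1 of 5 lymphocyte markers (7.96 to 8.07) and 1 of 5 endothelial markers (11.22 to 11.90 against 11.40 to 12.34 in vehicle livers) were lower and Epcam was higher (10.10 to 10.18). Of 5 endothelial and 2 neutrophil markers 0 were called at 1032.5 mg/kg. At 64.6 and 129.2 mg/kg none of the markers of any type was called. Uncalled log2 changes at 64.6 mg/kg ran from -0.87 to -0.79 for the 2 neutrophil markers. They ran from -0.76 to -0.50 for the 2 red cell markers and from -0.13 to 0.83 for the 7 hepatocyte markers. The part of these cell types in the changes of the 6 genes was not tested at any dose, including the high doses at which Hlf and Noct were called. As a measure of RNA integrity, the 5′ minus 3′ signal of the Gapdh and beta-actin controls averaged -1.97 ± 0.26 at 64.6, -1.73 ± 0.24 at 129.2, -2.03 ± 0.93 at 258.1, -2.30 ± 0.64 at 516.2 and -1.54 ± 0.37 at 1032.5 mg/kg (SD, n = 3 each), against -1.95 ± 0.29 in vehicle livers (n = 6). The lowest array was replicate 1 of the 258.1 mg/kg group, at -3.10, and replicate 3, the highest array of that dose for 5 of the 6 genes, was at -1.35.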

How the data were processed

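Liver RNA of 21 rats was read on Affymetrix rat arrays. The authors deposited RMA values on the log2 scale, a method named in the submitters' processing notes, while its software and version were not given in the sources used here. They were used as deposited. Array values carry no read depth, and 3 arrays per dose against 6 vehicle arrays limit precision.

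Tests covered 31042 probe sets, without the 57 array controls, and 20826 of these name 1 gene. Symbols were taken from RefSeq's GRCr8 gene table where it held the probe set's Entrez identifier (20758 probe sets, whether or not the symbol differed). A gene is represented by the brightest probe set naming it alone. limma 3.58.1 in R 4.3.3 fitted 1 coefficient per group to all 21 arrays without covariates. Two-sided p-values were adjusted within each comparison over all probe sets (Benjamini-Hochberg, threshold 0.05), and standard errors are limma's. Differences between genes used exact permutation tests. The fit was tested on simulated data.

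The members and lists were chosen with earlier results of these data known. Named genes are the members, the core clock list, of the other lists the called genes (up to 4 per dose by size, or the brightest 2 if none was), and the 3 genes most like each member by r, with the 3 most opposed for Dbp. Cyp7a1, Ppara and Acot3 and Acot4 at the doses of their unadjusted p-values are named after their values were seen. Replicate numbers were not treated as pairs in the main fit. Deviations of same-numbered arrays correlated at -0.280 to 0.394 over 45 pairs (mean r = 0.030). Those of other numbers correlated at -0.441 to 0.302 over 135 pairs (mean r = -0.010). These ranges do not settle whether the numbers mark pairs. Alternatives were a fit of the compared groups alone, 2 other scalings, removal of the dimmer probe sets, an intensity trend, array weights, a fold minimum of 1.5, other probe sets, the replicate number as a block, dose in mg/kg, and each array left out.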

Additional observations from a re-analysis of the deposited data

How the results depend on the processing

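Of 585 values for the 6 genes (30 comparisons of a dose with the vehicle, under the alternatives), 562 kept their direction and side of the threshold, 21 lost a call and 2 gained one, and all calls of Dbp, Nfil3 and Usp2 against the vehicle held under every alternative run. Under the alternatives other than leaving out an array, the 6 genes called numbered 3 to 4 at 64.6 and 3 to 5 at 129.2 mg/kg. They numbered 4 to 5 at 258.1 and 5 to 6 at both 516.2 and 1032.5 mg/kg. The number of the 6 genes with a slope was 0 in place of 1 with an intensity trend and robust variance or with dose in mg/kg, and between 0 and 2 with 1 array left out. The number called between 1032.5 and 64.6 mg/kg was 1 in place of 0 without the dimmer probe sets, with array weights or with a gene's probe sets averaged, and 0 to 1 with 1 array left out. The Noct slope had adjusted p = 0.0937 with the intensity trend, 0.0941 with array weights and 0.0560 on the dose in mg/kg. The Hlf call at 258.1 mg/kg was lost with only the compared groups (adjusted p = 0.189), with array medians subtracted (0.0629) and with the intensity trend (0.0627), and array weights gave Noct a call at 129.2 mg/kg (adjusted p = 0.00445) and Hlf a slope (adjusted p = 0.0199). The clock genes called at 516.2 mg/kg numbered 5 to 8 with 1 array left out. The PAR bZIP targets called at 129.2 mg/kg were 1 with only the compared groups and 3 with array weights, in place of 0, and 1 in place of 2 at 258.1 and at 516.2 mg/kg without the dimmer probe sets. Other rhythmic genes called were 1 in place of 2 at 64.6 mg/kg with another probe set, and at 129.2 mg/kg 1 with only the compared groups or another probe set and 7 with array weights. Directions turned only in values near 0 or with another probe set: the Tef slope (-0.051), Cry2 at 64.6 (-0.0072) and 516.2 mg/kg (-0.013), Per3 at 516.2 mg/kg (-0.049), Tef minus Hlf at 516.2 (-0.038) and 1032.5 mg/kg (-0.88), and the Nfil3 slope (0.0045 with array medians subtracted, 0.0057 with array weights, and -0.031 to 0.024 with 1 array left out). The differences between PAR bZIP genes called were 8 to 12 of 15 with 1 array left out, in place of 11. The causes were not tested. Over all probe sets the calls ranged over the alternatives that keep every array from 42 to 126 at 64.6 mg/kg (77 as reported), 47 to 2129 at 129.2 (108), 356 to 1207 at 258.1 (731), 630 to 2547 at 516.2 (1868) and 841 to 2884 at 1032.5 mg/kg (1908), 321 to 2717 over the mean of the doses (1770), 403 to 1236 by slope (708), 284 to 820 between 1032.5 and 64.6 mg/kg (458), and up to 568 between neighbouring doses (0). With 1 array left out the same counts were 42 to 88, 34 to 104, 244 to 1048, 631 to 2499, 1136 to 2052, 1333 to 1915, 370 to 760, 213 to 380 and up to 86. With the replicate block, the 6 genes called were 4, 4, 5, 5 and 6, the probe sets called 42, 47, 774, 1347 and 1483, and adjusted p was 0.0629 for Noct at 516.2 mg/kg, 0.0735 for Noct over the mean of the doses and 0.0827 for Bmal1 at 129.2 mg/kg.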
